A study of Mus musculus with 2 samples.

Results

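Hes5 progenitors that express Dll1 were followed in the medial ganglionic eminence of the mouse embryo (MGE), a proliferative zone of the ventral forebrain that gives rise to GABAergic interneurons and cholinergic neurons. They were chosen by 3 deposited values of each cell: Hes5 of 3 or more, Tubb3 under 10 and Dll1 of 1 or more. The rule found 313 of 4001 cells, 7.82% of all (exact 95% interval 7.01% to 8.70%). They were set against the 746 cells with the same Hes5 and Tubb3 limits and Dll1 at 0, called Dll1-negative Hes5 progenitors. Together these are the 1059 Hes5 progenitors, of which the Dll1-positive cells made up 29.6% (26.8% to 32.4%).

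The tissue was taken from CD-1 mouse embryos at stage E11.5 and sequenced by 10x Chromium after MULTI-seq labelling, which tags each cell suspension with its own lipid-bound oligo before pooling. There were 6 such tags for embryos with either of 2 enhancers, hs192 and hs799, and 4 of them marked GFP-gated cells and 2 ungated cells. The gate can set the share of any class of cells, and with no map from cells to barcodes used here, the cells form 1 library with no replicate, so that no difference was tested and none could be set against a spread between embryos.

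Notch signalling works between touching cells. A ligand such as Delta-like 1, encoded by Dll1, binds a Notch receptor on the neighbour, whose cleaved inner part joins the DNA-binding protein Rbpj and switches on the repressor genes Hes1 and Hes5. These repressors hold back proneural factors, which in turn drive Dll1. In this way a cell that begins to differentiate keeps its neighbours in the progenitor state, a circuit known as lateral inhibition. Hes5 marks cells that receive the signal and Dll1 cells that send it, and cells with both are the subject here. In GRCm38, Hes5 lies on chromosome 4 (154960923 to 154962371) and Dll1 on chromosome 17 (15367354 to 15376872), both protein-coding.

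The promoters of genes at either end of this circuit are shown because the results turn on these genes. Each run is the 250 bases before the start of a RefSeq transcript (GRCm38.p6), written 5′ to 3′ on the gene's strand. Capitals mark TGGGAA, the core that Rbpj binds, in Hes5, and CAGCTG, an E-box of the kind that proneural basic helix-loop-helix factors bind, in the others. Both strands were searched, and the motifs do not overlap each other.
Hes5 promoter, chr4:154960673-154960922, plus strand: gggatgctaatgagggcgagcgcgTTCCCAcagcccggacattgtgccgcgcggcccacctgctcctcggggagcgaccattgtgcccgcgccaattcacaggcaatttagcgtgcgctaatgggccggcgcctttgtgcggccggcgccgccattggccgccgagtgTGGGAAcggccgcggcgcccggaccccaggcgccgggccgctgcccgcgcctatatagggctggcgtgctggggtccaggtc
Dll1 promoter, chr17:15376933-15377182, minus strand: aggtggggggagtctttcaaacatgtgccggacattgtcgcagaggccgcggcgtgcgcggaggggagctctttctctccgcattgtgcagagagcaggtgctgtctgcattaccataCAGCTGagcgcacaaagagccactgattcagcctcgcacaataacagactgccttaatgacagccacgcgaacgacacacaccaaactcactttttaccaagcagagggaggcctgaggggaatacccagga
Dll3 promoter, chr7:28301786-28302035, minus strand: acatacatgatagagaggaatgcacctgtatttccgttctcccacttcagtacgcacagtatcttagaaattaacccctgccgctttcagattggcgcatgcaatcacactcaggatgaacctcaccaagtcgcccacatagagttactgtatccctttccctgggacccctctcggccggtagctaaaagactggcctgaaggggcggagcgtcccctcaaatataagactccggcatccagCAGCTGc
Gadd45g promoter, chr13:51846425-51846674, plus strand: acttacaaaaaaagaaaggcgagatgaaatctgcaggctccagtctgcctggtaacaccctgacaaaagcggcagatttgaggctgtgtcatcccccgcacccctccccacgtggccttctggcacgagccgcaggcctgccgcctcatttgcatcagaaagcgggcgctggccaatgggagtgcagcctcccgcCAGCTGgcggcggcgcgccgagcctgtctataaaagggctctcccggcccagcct
The Hes5 window held the Rbpj core at positions 25 and 169 of the run, the first on the other strand. CAGCTG stood at position 119 for Dll1, 244 for Dll3 and 196 for Gadd45g. Dll1 has a further RefSeq start, whose 250 bases held no CAGCTG. Over all 32851 promoter entries of this length, 13.0% held CAGCTG and 21.6% held TGGGAA, so a match is a description of these letters and not evidence of binding.

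Each value in the deposited table is a whole number made by the authors from counts of unique molecular identifiers (UMIs), already corrected for depth. A gene's level is its sum over a group per 10000 of all summed values, with the standard deviation (SD) over cells. The SD describes the spread of cells in the library, not the error of a mean. Cell totals had a median of 13453 in Dll1-positive and 13522.5 in Dll1-negative Hes5 progenitors, and the median number of genes per cell was 4426 and 4555.5. Cells in which the value 1 was rare, a trace of scaling, made up 3.19% and 2.95%, and raw depth per cell is unknown. Intervals on shares cover the counting of cells only, and no cell barcode was repeated.

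Most members held little Dll1. Of the 313 cells, 183 had a Dll1 value of 1, 52 a value of 2, 28 a value of 3, 21 a value of 4, 13 a value of 5, and 16 a value of 6 to 10. A value of 1 was also common outside the progenitors. In the 1716 neuron-side cells with Tubb3 of 20 or more and Hes5 at 0, 15.4% had a Dll1 value of exactly 1, against 17.3% of Hes5 progenitors (15.0% to 19.7%). A value of 2 or more was found in 12.3% of Hes5 progenitors (10.4% to 14.4%) and in 4.37% of those neuron-side cells (3.45% to 5.45%). Membership at a value of 1 therefore could not be told apart from the level found in neuron-side cells, while higher values were more frequent among Hes5 progenitors.

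The label held for the progenitor state only in part. Sox2, a neural stem cell factor, was at 6.18 in Dll1-positive and 6.57 in Dll1-negative cells. Nes, encoding the progenitor filament nestin, was at 7.79 and 9.08, and Vim, encoding vimentin, at 21.2 and 23.8. Of the same kind of marker, Hes1 (log2 ratio -0.73) and Fabp7 (-0.60) were lower in Dll1-positive cells. Markers of committed progenitors, namely Gadd45g, Insm1, Dll3, Dlx1, Dlx2 and Hes6, were higher. Hes5 and Dll1 chose the cells, so their own values are only described. The deposited Hes5 value ran from 3 through a median of 14 to 63 in Dll1-positive cells, and from 3 through 15.5 to 70 in Dll1-negative cells. The groups thus covered nearly the same Hes5 range. The limits of the rule did not fall at a gap: the share of cells with Dll1 was 37.7% of 53 cells with Hes5 at 3 and 41.7% of 60 cells with Hes5 at 2, and 56.0% of 25 cells with Tubb3 at 9 and 63.2% of 19 cells with Tubb3 at 10. Dll1-positive cells with Hes5 at 3 (20 cells) had Gadd45g at 8.50, and those with Hes5 at 2 (25 cells), outside the rule, at 7.26.

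Proneural genes were higher as a group in the Dll1-positive cells. A gene was compared if it had a value in at least 5% of Hes5 progenitors, which left 11099 genes beside the 3 of the rule, and it was counted as higher or lower at a ratio of 1.5 or more. Over all of them 2.41% were higher and 5.19% lower in Dll1-positive cells, with a median log2 ratio of -0.049. Of 26 proneural and neurogenic genes compared, 16 were higher and 0 lower, with a median log2 ratio of 0.98.

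Gadd45g, a growth arrest gene that marks cells entering neurogenesis (chromosome 13, 51846678 to 51848468, GRCm38, protein-coding), gave the widest difference of the list. Its deposited value ran from 0 through a median of 1 to 74 in Dll1-positive cells, and from 0 through 0 to 16 in Dll1-negative cells. The values varied widely over cells, with an upper quartile of 7 and a 95th percentile of 26.4 in Dll1-positive cells, against 0 and 2. The level was 4.45 (SD 8.16) against 0.292 (SD 1.16), a log2 ratio of 3.93. A value was found in 62.3% (56.7% to 67.7%) and 17.4% (14.8% to 20.3%). After each cell was thinned to 10000 values these shares were 58.5% and 13.9%.

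**Figure D1:**
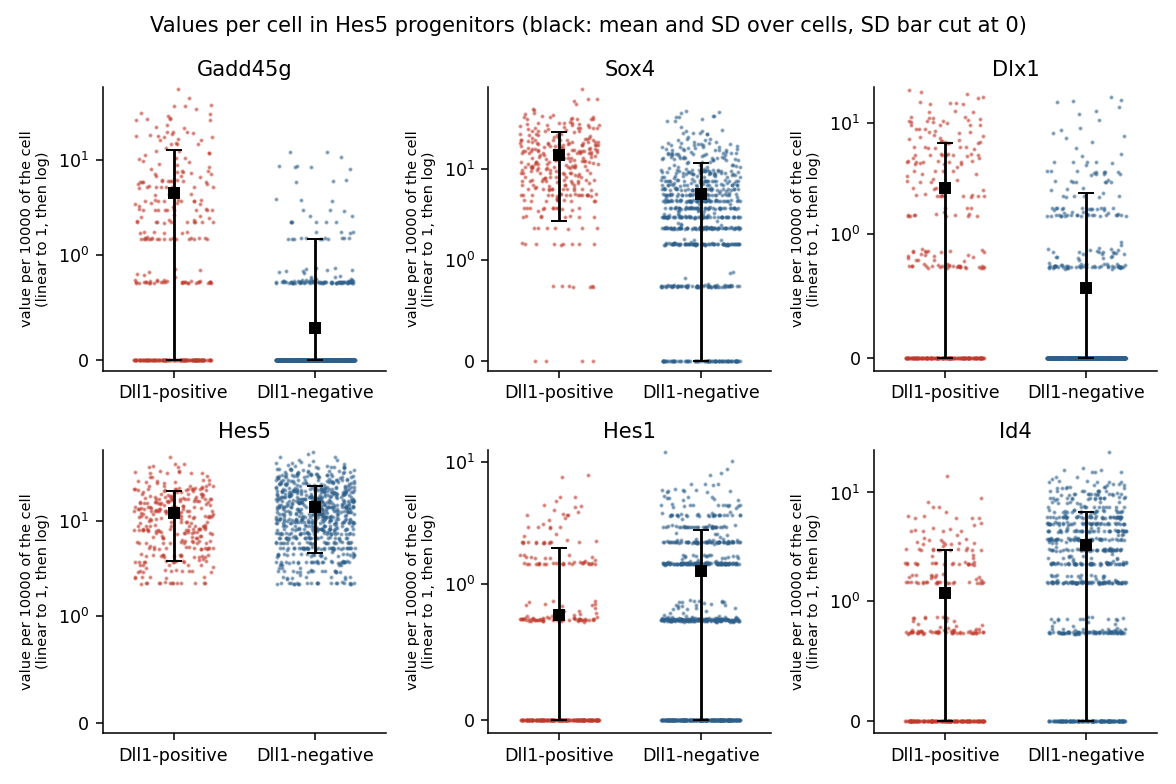
Gadd45g, Sox4, Dlx1, Hes5, Hes1 and Id4 in single Dll1-positive (313) and Dll1-negative (746) Hes5 progenitors. Each point is a cell, the y axis is its value per 10000 of its summed values (linear to 1, then log), and black marks the mean and SD over cells with the SD bar cut at 0; the clouds overlap, with Gadd45g at a level of 4.45 and 0.292, Dlx1 at 2.60 and 0.540, Hes5 at 12.1 and 13.9 and Id4 at 1.2 and 3.32.

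Other neurogenic genes followed the same direction. Insm1, a zinc finger factor of cells committed to neurogenesis, was at 1.06 (SD 1.55) in Dll1-positive and 0.190 (SD 0.541) in Dll1-negative cells, a log2 ratio of 2.47. Hes6, which encodes a Hes family member that opposes Hes1, was at 2.86 (SD 3.31) and 0.792 (SD 1.31), a log2 ratio of 1.85. Sox4 and Sox11, which encode factors that switch on neuronal genes, were present in nearly all cells of both groups and differed by amount. Sox4 had a median deposited value of 15 and 4 and a log2 ratio of 1.42, and Sox11 a median of 17 and 11 and a log2 ratio of 0.75. Rgs16, a regulator of G protein signalling, was at 1.03 and 0.223 and the zinc finger gene Myt1 at 0.103 and 0.0273. The homeobox gene Gsx1 was found in 38 Dll1-positive and 15 Dll1-negative cells. At 0.230 and 0.0243 its log2 ratio was 3.24, and its sister gene Gsx2 was at 0.418 and 0.190. Averaged over 3 strata of Gadd45g value, Gsx1 at 0.52, Gsx2 at 0.34, Rgs16 at 0.52 and Sox11 at 0.24 were inside 1.5-fold. With Dll1 at exactly 1, Gsx1 was at 1.04.

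Some members of the list differed by less. Olig2, a factor of ventral progenitors, was at 2.62 and 2.39, and the E proteins Tcf3 and Tcf4, which pair with proneural factors, had log2 ratios of 0.02 and 0.25. Proneural factors of the dorsal forebrain were too rare to compare, with Neurog1 in 3 Dll1-positive and 1 Dll1-negative cells and Neurog2 in 4 and 4.

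Among Notch ligands, Dll3 went with Dll1. It encodes a divergent Delta protein that acts inside the cell, and its level was 0.587 (SD 0.955) in Dll1-positive cells against 0.107 (SD 0.389) in Dll1-negative cells, a log2 ratio of 2.45. A value was found in 38.7% (33.2% to 44.3%) and 11.3% (9.08% to 13.8%). Of the 4 ligand genes compared, 2 were higher and 0 lower. The second was Dner, at 0.0660 and 0.0385. Jag1, which encodes a ligand of the Jagged class, had a log2 ratio of 0.41 and Dlk1, an atypical ligand gene, 0.39. Jag2 had a value in 6 and 8 cells and was not compared, and Dll4 had no row in the table.

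Receptors and the enzymes around them differed little, with 2 of 21 genes higher, 1 lower and a median log2 ratio of 0.01. Notch1, the main receptor of these progenitors, was at 2.45 (SD 1.42) in Dll1-positive and 2.24 (SD 1.42) in Dll1-negative cells and was found in 97.1% and 94.9% of cells. Dll1-positive cells therefore carried receptor transcript as often as the others. Mfng, which encodes a fringe glycosyltransferase that tunes how Notch reads its ligands, was at 1.79 (SD 1.60) and 0.860 (SD 1.01), a log2 ratio of 1.06. The related Lfng was at -0.16. Numbl, a relative of the Notch inhibitor Numb, had a log2 ratio of 1.01 and Numb itself -0.14. Notch3 was the lower member, at 0.276 and 0.463. Averaged over strata of Gadd45g all 3 calls of this list were lost, with Mfng at 0.39, Numbl at 0.24 and Notch3 at -0.47. Mib1, encoding the ubiquitin ligase that activates ligands in the sending cell, had a log2 ratio of 0.18.

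Hes1 and Hey1, Notch targets other than Hes5, were lower in Dll1-positive cells. Of 9 nuclear partners and targets compared, 2 were higher (Hes6 and Rbpj) and 4 lower, with a median log2 ratio of -0.37. The lower genes were Hes1, Hey1, Id4 and the partner gene Maml2, at a log2 ratio of -0.66. Hes1, the repressor of ventricular zone cells, ran from a deposited value of 0 through a median of 0 to 10 in Dll1-positive cells, and from 0 through 1 to 16 in Dll1-negative cells. Its level was 0.777 (SD 1.2) and 1.29 (SD 1.52), and it was found in 47.6% (42.0% to 53.3%) and 67.4% (63.9% to 70.8%) of cells. In the neuron-side cells Hes1 was found in 1.4%, so both shares lay far above that background. Hey1, a related repressor gene, was at 0.301 and 0.499. Nrarp, which encodes a feedback inhibitor of Notch, was at 1.11 and 1.43, inside the limit of 1.5-fold.

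Id4, which encodes an inhibitor of proneural factors, showed the largest shortfall among these genes. Its deposited value ran from 0 through a median of 1 to 19 in Dll1-positive cells, and from 0 through 3 to 32 in Dll1-negative cells. The level was 1.2 (SD 1.77) and 3.32 (SD 3.33), a log2 ratio of -1.47, with a value in 55.3% (49.6% to 60.9%) and 81.8% (78.8% to 84.5%) of cells. Hes5, by contrast, had a log2 ratio of only -0.20, but the rule bounded it from below in both groups.

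**Figure D2:**
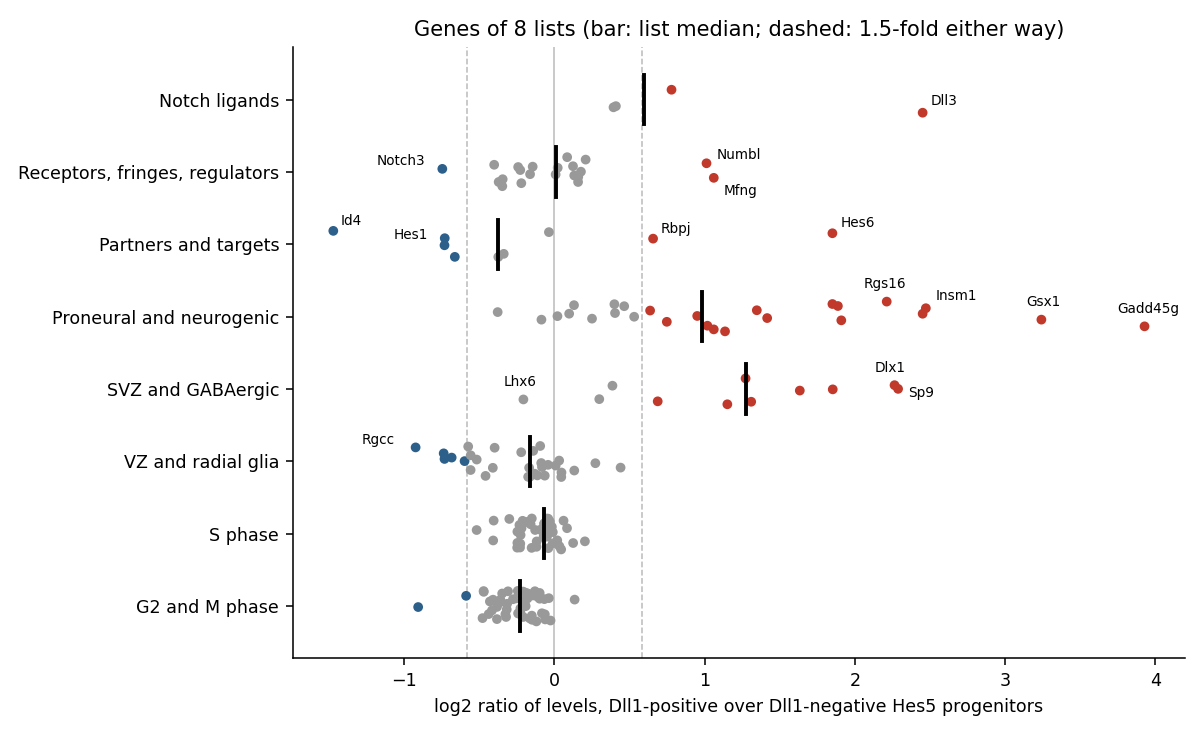
Log2 ratio of levels, Dll1-positive over Dll1-negative Hes5 progenitors, for the compared genes of 8 lists. Each point is a gene (red at least 1.5-fold higher, blue at least 1.5-fold lower, grey between), bars are list medians and dashed lines mark 1.5-fold either way; Hes6, Mfng, Dll3 and Hes1 belong to more than 1 list. Proneural (median 0.98) and subventricular zone genes (median 1.27) lie to the right and S phase genes around 0. Notch nuclear partners and targets have a median of -0.37, with Hes6 and Rbpj to the right.

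The differences were graded by the amount of Dll1. From Dll1 values of 0 through 1 and 2 to 3 or more (746, 183, 52 and 78 cells), the Gadd45g level was 0.292, 2.16, 6.85 and 8.33, that of Insm1 0.190, 0.706, 1.42 and 1.65, and that of Sox4 5.15, 10.3, 15.3 and 21. Hes1 went the other way at 1.29, 1.04, 0.508 and 0.322, and Id4 at 3.32, 1.54, 0.741 and 0.684. Hes5 was at 13.9, 13.3, 11.2 and 9.83. Cells with a Dll1 value of exactly 1, which are as frequent among neuron-side cells, thus lay between Dll1-negative cells and cells with more Dll1 for every gene in the plot by Dll1 value. Cells with Dll1 at 3 or more also differed in cell cycle genes and in genes per cell. Against cells at 0, their summed S phase level averaged 63.1 and 79.7, and that of G2 and M phase genes 85.2 and 125. The median number of genes was 4098 and 4555.5. The part of this in the grading was not tested.

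**Figure D3:**
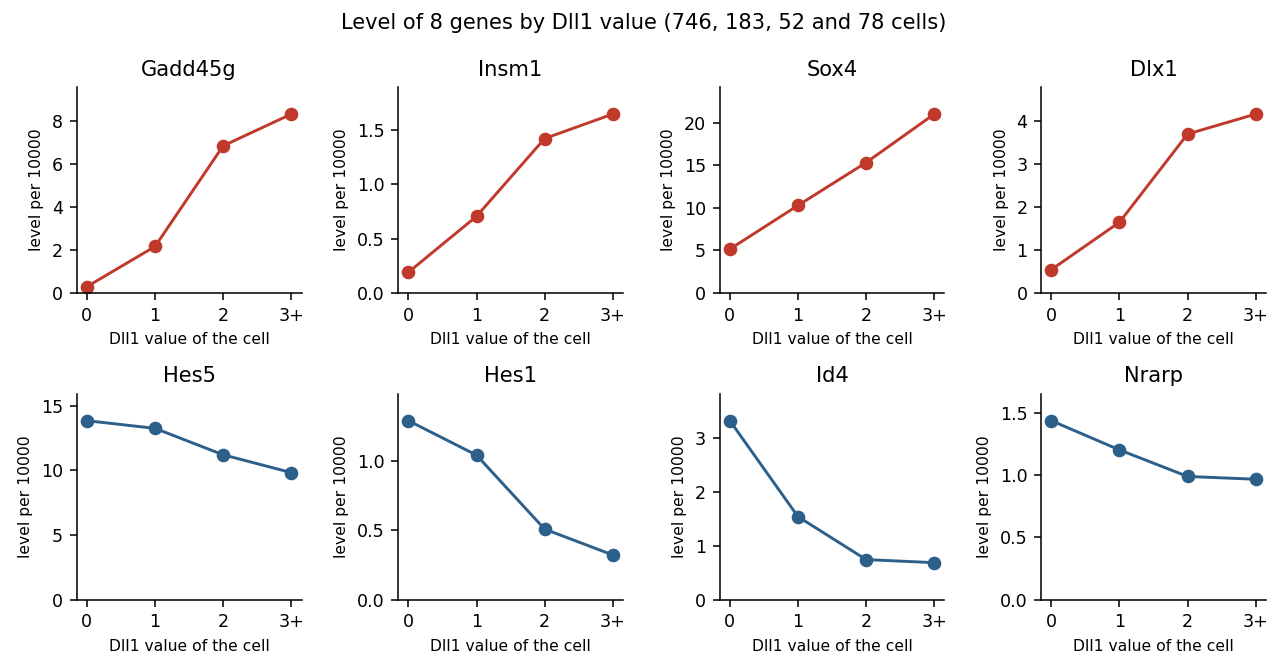
Level per 10000 of 8 genes in Hes5 progenitors with a Dll1 value of 0, 1, 2 or at least 3 (746, 183, 52 and 78 cells); each y axis starts at 0. Gadd45g, Insm1, Sox4 and Dlx1 climb with Dll1, and Hes5, Hes1, Id4 and Nrarp decline. Cells at 3 or more also had fewer genes and lower summed cell cycle levels than cells at 0.

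Seen from Gadd45g, the share of Hes5 progenitors with Dll1 was 16.1% of 734 cells with Gadd45g at 0 (13.5% to 18.9%), 39.3% of 173 at 1 to 2 (32.0% to 47.0%), and 83.6% of 152 at 3 or more (76.7% to 89.1%). These shares restate the Gadd45g difference given above from the other side, and their intervals cover the counting of cells only. Seen from Hes5, the share was 40.0% at values of 3 to 5, 30.7% at 6 to 11, 29.7% at 12 to 23 and 22.7% at 24 or more, a shallower trend in the other direction.

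**Figure D4:**
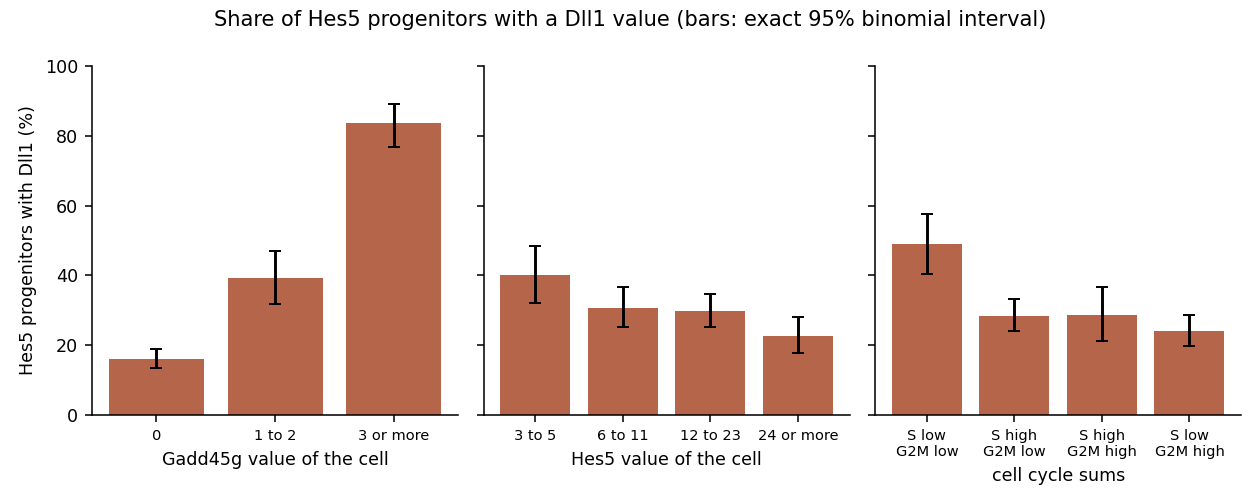
Percentage of Hes5 progenitors with a Dll1 value, by Gadd45g value, Hes5 value and cell cycle stratum, with exact 95% intervals that cover the counting of cells. The share runs from 16.1% to 83.6% over Gadd45g and from 40.0% to 22.7% over Hes5, and is 48.9% in cells low in both sets of cell cycle genes.

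Part of the difference remained within strata of Gadd45g value, which did not fully match the groups. In the stratum of 3 or more, Gadd45g itself was at 10.5 in Dll1-positive and 5.24 in Dll1-negative cells. Its own log2 ratio averaged over the 3 strata was 0.92. How much of the remaining difference goes with this was not tested. In the cells with Gadd45g at 0 (118 Dll1-positive and 616 Dll1-negative), Sox4 was at 9.06 and 4.38, Hes6 at 1.48 and 0.618, Hes1 at 1.16 and 1.37 and Id4 at 1.74 and 3.61. In those with Gadd45g at 3 or more (127 and 25 cells) the groups were closer, with Sox4 at 19.3 and 20.3, Hes6 at 4.52 and 3.59, Hes1 at 0.400 and 0.468 and Id4 at 0.600 and 0.686. Averaged over the 3 strata of Gadd45g value, the log2 ratio of Dll3 was 0.82, that of Insm1 0.76 and that of Id4 -0.81. Sox4 at 0.37, Cdkn1c at 0.52, Hes1 at -0.27, Hey1 at -0.37 and Rbpj at 0.30 were then inside 1.5-fold, and the median of the proneural and neurogenic genes was 0.38 in place of 0.98. The highest stratum held only 25 Dll1-negative cells and weighed as much as the others.

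Transcripts of the subventricular zone, the layer of committed progenitors, were also higher in Dll1-positive cells. Of 11 subventricular zone and GABAergic genes compared, 8 were higher and 0 lower, with a median log2 ratio of 1.27. Dlx1, a homeobox gene of the GABAergic program, ran from a deposited value of 0 through a median of 1 to 26 in Dll1-positive cells, and from 0 through 0 to 23 in Dll1-negative cells. Its level was 2.60 (SD 4.04) and 0.540 (SD 1.80), found in 55.6% (49.9% to 61.2%) and 23.3% (20.3% to 26.5%). Dlx2 was at 1.93 and 0.535 and Sp9 at 0.687 and 0.141. Averaged over strata of Gadd45g, Dlx1 (log2 ratio 0.51 in place of 2.26) and Dlx2 (0.31 in place of 1.85) were inside 1.5-fold, while Sp9 was at 1.2. Later genes differed less or not at all: Lhx6, which acts in MGE interneurons, was at 0.0807 and 0.0931, and Lhx8, of cholinergic neurons, at 0.242 and 0.185. No source used here says whether reads were counted by strand, so those of Dlx1 and Dlx6 and of their antisense transcripts may not be separable.

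Neuronal transcripts moved with the group in part. Of 21 pan-neuronal genes 4 were higher and 0 lower, with a median log2 ratio of 0.30, and their summed level ran from 6.65 to 72.7 (median 23.4) in Dll1-positive and from 4.41 to 65.0 (median 18.5) in Dll1-negative cells. The 4 were Elavl4, an RNA-binding protein gene, at a log2 ratio of 1.36, Dpysl3 at 1.05, Tagln3 at 0.96 and Nefm at 0.69. By contrast, Mapt, Gap43, Snap25 and Syt1 lay between -0.14 and 0.13. Averaged over strata of Gadd45g, Dpysl3 at 0.41, Tagln3 at 0.02 and Nefm at 0.55 were inside 1.5-fold, while Elavl4 was at 0.81. With Dll1 at exactly 1, Dpysl3 at 0.44, Tagln3 at 0.41 and Nefm at 0.55 were also inside it, and Elavl4 was at 0.73. Tubb3 itself, which the rule bounded from above, was at 2.78 and 1.65. When all cells with a Dlx1 or Dlx2 value were left out (98 Dll1-positive and 468 Dll1-negative cells remained), the log2 ratio of Gadd45g was 3.98, of Insm1 2.21, of Elavl4 1.21 and of Id4 -1.06. Hes1 at -0.24, Notch3 at -0.36 and Rbpj at 0.35 were then inside 1.5-fold, Sp9 was at 0.62, and Dlx6 turned to -0.23 from 1.31.

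Most ventricular zone genes lay inside 1.5-fold, but the list leaned lower. Of 31 compared, 0 were higher and 5 lower, beside 2.41% higher and 5.19% lower over all genes. The median log2 ratio was -0.16, against -0.049 over all genes. The summed level averaged 90.8 in Dll1-positive and 108 in Dll1-negative cells. Inside 1.5-fold were 26 genes, among them Sox2, Sox9, Nes, Vim and Prom1. The lower genes were Hes1, Rgcc, a cell cycle regulator gene, at 0.677 and 1.29, Zfp36l1, an RNA decay factor gene, at 0.794 and 1.32, Hmga2, a chromatin gene of young stem cells, at 1.82 and 2.93, and Fabp7, the radial glial fatty acid binding protein gene, at 12.1 and 18.3. Averaged over strata of Gadd45g, Rgcc was at a log2 ratio of -0.69, whereas Hes1, Zfp36l1 at -0.52, Hmga2 at -0.32 and Fabp7 at -0.43 lay inside 1.5-fold.

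Cell cycle genes separated the groups only slightly by level. S phase genes gave 0 higher and 0 lower of 44, with a median log2 ratio of -0.07, and G2 and M phase genes 0 higher and 2 lower of 52 (Gas2l3 and Aurkb), with a median of -0.23. The distribution over the cycle differed more. Cells were split at the median of the summed S phase and the summed G2 and M phase level, and cells low in both made up 21.7% of Dll1-positive (17.3% to 26.7%) and 9.52% of Dll1-negative cells (7.51% to 11.9%). The cuts divide a continuous range, with 56 and 28 Dll1-positive cells within 10% of the S phase cut and of the G2 and M phase cut. Of 14 replication-dependent histone genes compared, 0 were higher and 0 lower, with a median log2 ratio of -0.21. Their summed level is either low or very high in a cell, so its median can move far on a small change in shares. The median was 14.7 in Dll1-positive and 78.7 in Dll1-negative cells, while the means were closer, at 93.4 and 109.

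Genes of cell cycle exit gave 3 higher and 1 lower of 19. Cdkn1c, which encodes the cyclin-dependent kinase inhibitor p57, was at 6.85 (SD 15.3) in Dll1-positive and 1.78 (SD 3.64) in Dll1-negative cells, with highest deposited values of 188 and 45. Btg2, an antiproliferative gene of neurogenic divisions, was at 1.93 and 0.760, and averaged over strata of Gadd45g at a log2 ratio of 0.50, inside 1.5-fold. Gadd45g was the third. The lower gene was Cdk6, a G1 kinase gene, at 0.205 and 0.325, and Ccnd1, the D cyclin of ventricular zone cells, had a log2 ratio of 0.02.

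Cells low in both sets of cycle genes had the highest Cdkn1c level of the 4 strata. Among Dll1-positive cells the Cdkn1c level was 18.1 in the 68 cells low in both and 3.21 to 4.78 in the other strata, and Sox4 was at 23.5 and 9.04 to 12.4. These 68 cells also had fewer genes, a median of 3815 against 4473 to 4585.5. The contrast with Dll1-negative cells was present in every stratum: Gadd45g stood at 7.59 and 0.974 in cells low in both, at 3.48 and 0.186 in cells high in S phase genes only, at 5.70 and 0.239 in cells high in both, and at 2.97 and 0.261 in cells high in G2 and M phase genes only.

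Regional and signalling genes showed smaller, mixed differences. Of 22 regional factors 2 were higher and 4 lower, beside 2.41% and 5.19% over all genes, with a median log2 ratio of -0.12. Nkx2-1, which specifies the MGE, was at 2.45 and 2.0. Isl1, a LIM-homeodomain gene of cholinergic and striatal neurons, was at 0.450 and 0.129, a log2 ratio of 1.81 that turned to -0.39 when averaged over strata of Gadd45g. Lhx2, a telencephalic progenitor factor gene, was at 2.47 and 1.64. Nkx6-2, of the dorsal MGE border, was at 0.166 and 0.371, Six3 at 0.726 and 1.35, Emx2 at 0.0391 and 0.102, and Otx1 at 0.0660 and 0.120. So low a level of Emx2 rests on few Dll1-positive cells.

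Transcripts of secreted signals and their readouts were mostly lower where they differed, with Hhip the exception. Of 10 Shh pathway genes 1 was higher and 3 lower, with Shh itself at 0.105 and 0.291, the target Gli1 at 0.0269 and 0.0546, Gas1 at 0.0342 and 0.0739, and Hhip at 0.130 and 0.0789. Receptor Smo and target Ptch1 were inside 1.5-fold. Gli1 and Gas1 lay near the floor. For scale, Ano1 at a level of 0.0391 had a value in only 14 of the 313 Dll1-positive cells. Of 32 Wnt, Fgf and Bmp genes 0 were higher and 7 lower, beside 2.41% and 5.19% over all genes, with a median log2 ratio of -0.19. They comprised Id4, Id3, the Fgf target Etv5, the receptor genes Fgfr3 and Bmpr1b, the antagonist Fst, and Fgf15, at 0.176 and 0.384. Averaged over strata of Gadd45g, Id3 at -0.51, Fgfr3 at -0.36, Bmpr1b at -0.29 and Fst at -0.30 were inside 1.5-fold. Without cells that held Dlx1 or Dlx2 this was so of Id3 at -0.56, Fgfr3 at -0.23, Fst at -0.23, Etv5 at -0.50 and Fgf15 at -0.54. Id4 was the only one of the 7 past 1.5-fold under both.

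Adhesion and polarity genes gave 2 higher and 2 lower of 27 (median -0.07), beside 2.41% higher and 5.19% lower over all genes. Akna, a centrosomal gene of delaminating cells, was at 0.183 and 0.112, and Scrt1, a neuronal repressor gene, at 0.137 and 0.0880. Plekha7 and Lama1 were the lower genes. Immediate early and stress genes gave 2 higher and 2 lower of 14 (median 0.00), with Jun at 2.23 and 3.57. Counts this small only describe the genes named and are not read as a shift of either list. Hemoglobin genes, taken as a sign of free RNA, gave 0 and 0 of 4 (median -0.03).

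Markers of other cell types were near 0. Of 8 such markers with a row, Pecam1, Aif1 and Dcn were at 0 in Dll1-positive cells and 1, Pdgfra, was frequent enough to compare, at 0.108 and 0.0597, found in 36 and 43 cells. The summed level of the list ran from 0 to 5.2 in Dll1-positive and from 0 to 6.77 in Dll1-negative cells, with a median of 0 in both. Of 6 glutamatergic lineage genes with a row none reached 5% of cells, and their summed level had a median of 0 in both groups and reached 29.3 in a Dll1-positive cell and 7.37 in a Dll1-negative one. Their part in the results was not tested.

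Outside the lists, genes were ranked by ratio among those found in at least 10% of Hes5 progenitors. The higher end was led by Lzts1, a microtubule-associated gene of delaminating cells, at 0.391 (SD 0.651) and 0.0688 (SD 0.305), found in 33.2% and 6.70% of cells. It was followed by Srrm4, the neural splicing regulator gene, at 0.714 and 0.154, and Prox1, a homeobox gene of differentiating progenitors, at 0.284 and 0.0759. After them came Dleu7, Miat, Anks1, Nrxn3, Gse1, Cdk5r1, Mllt11, Stk33 and Whrn. The lower end was led by Ano1, a calcium-activated chloride channel gene, at 0.0391 and 0.155, found in 4.47% and 16.1%, by Gpr50, and by Ptx3, a pentraxin gene, at 0.144 and 0.421. After them came C1ql1, Dusp14, Ubash3b, Fam181a, Anxa2, Hpgd, Lrrtm1, Fam181b and Filip1. Averaged over strata of Gadd45g, several genes of the higher end were inside 1.5-fold. They were Prox1 at 0.58, Anks1 at 0.52, Nrxn3 and Gse1 at 0.30, Cdk5r1 at 0.28, Mllt11 at 0.56 and Stk33 at 0.51. All genes named at the lower end stayed past it.

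Members differed among themselves in how much of the neurogenic set they held. The 4 genes of this set were already given above as higher in Dll1-positive cells, so their counts against Dll1-negative cells restate those differences. Of Gadd45g, Insm1, Dll3 and Hes6, all 4 had a value in 71 members (22.7%, 18.2% to 27.7%) and in 12 Dll1-negative cells (1.61%, 0.834% to 2.79%), and none had one in 22 members and 273 Dll1-negative cells. Among the members, the 82 with 0 or 1 of the 4 genes, the 79 with 2 and the 152 with 3 or 4 had Hes1 at 1.26, 0.888 and 0.459 and Id4 at 2.18, 1.24 and 0.640. Their Hes5 was at 14.6, 14.2 and 9.61 and Cdkn1c at 2.29, 4.02 and 10.8. Members with few of the 4 genes thus had Hes1 near the Dll1-negative level of 1.29, while their Id4 lay below the Dll1-negative level of 3.32.

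The 4 genes also went together within the members. Gadd45g-positive members (195 cells) had Dll3 in 51.8% (44.5% to 59.0%) and Insm1 in 67.2% (60.1% to 73.7%), against 16.9% (10.7% to 25%) and 33.9% (25.4% to 43.2%) of the 118 members with Gadd45g at 0. Hes1 was found in 38.5% (31.6% to 45.7%) and 62.7% (53.3% to 71.4%). Olig2 was as frequent in both, at 85.6% and 84.7%.

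**Figure D5:**
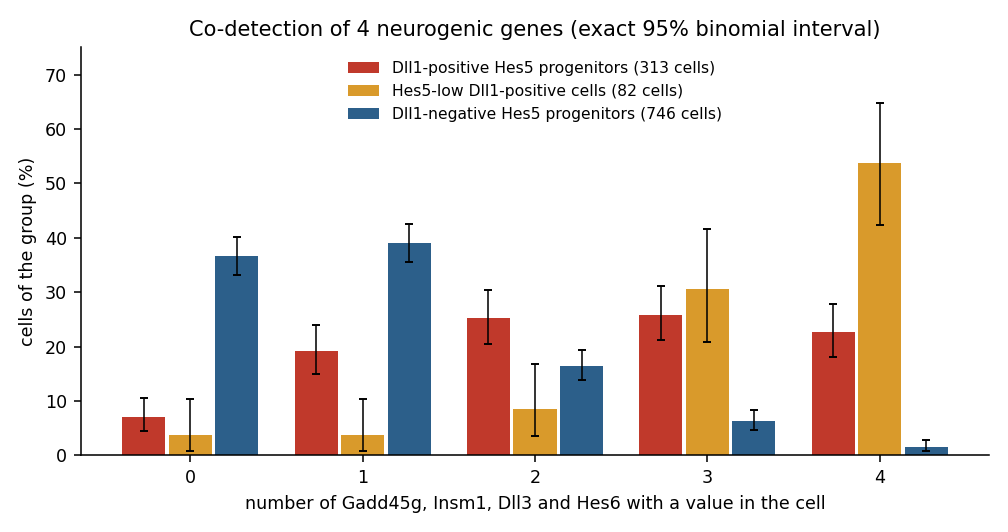
Percentage of cells by how many of Gadd45g, Insm1, Dll3 and Hes6 had a value, from 0 to 4, with exact 95% intervals, in Dll1-positive Hes5 progenitors, Hes5-low Dll1-positive cells and Dll1-negative Hes5 progenitors. All 4 were present in 22.7%, 53.7% and 1.61%. Each of the 4 genes is among those higher in Dll1-positive than in Dll1-negative Hes5 progenitors.

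Cells with Dll1 and little Hes5 were set against the members as a further group. There were 82 with Dll1 of 1 or more, Tubb3 under 10 and Hes5 under 3. Over 10927 genes compared, 11.3% were at least 1.5-fold higher and 5.61% lower in Dll1-positive Hes5 progenitors than in Hes5-low Dll1-positive cells. In the same order, Gadd45g was at 4.45 and 9.53, Insm1 at 1.06 and 2.23, Dll3 at 0.587 and 1.41, Dlx1 at 2.60 and 7.26, and Cdkn1c at 6.85 and 12.9. Hes1 was at 0.777 and 0.338, Nrarp at 1.11 and 0.385, and Notch1 at 2.45 and 1.79. For each of these genes but Notch1 the Dll1-positive Hes5 progenitors lay between the Hes5-low Dll1-positive cells and the Dll1-negative Hes5 progenitors. The Hes5-low cells also held more Dll1, at a level of 1.96 against 1.54 in the members. A Dll1 value of 2 or more was found in 70.7% (59.6% to 80.3%) and 41.5% (36.0% to 47.2%). Whether the position in between goes with the amount of Dll1 was not tested. Mfng at 1.79 and 2.02, Btg2 at 1.93 and 2.12 and Rbpj at 1.10 and 1.0 were close to the Hes5-low cells already, and apart from the Dll1-negative levels of 0.860, 0.760 and 0.696. All 4 genes of the neurogenic set had a value in 53.7% of the Hes5-low cells (42.3% to 64.7%).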

How the data were processed

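The RNA library of 1 pooled 10x MULTI-seq run was analysed; the cell-to-barcode assignment was not used here. The submitters' processing notes name Cell Ranger 3.0.2, bcl2fastq and build GRCm38. The deposited table held 18088 genes and 4001 cells as whole values from 0 to 1245. The authors' values were treated as a score, because cell totals lay in a narrow range (10475 to 14196, median 12506) and 216 cells (5.40%) skipped the value 1, as scaling and rounding produce. They are not raw counts, and no count model was applied, although the design had allowed for either.

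Levels, ratios and shares with exact (Clopper-Pearson) 95% intervals were computed in Python 3.11.15 with numpy 2.4.6, pandas 2.3.3 and scipy 1.17.1, and the procedure was tested on simulated data. Cells are not replicates, so no p-value or standard error was computed. Where a symbol had several rows (9 symbols), only its row of largest sum was named. Scrublet (scanpy 1.11.5) called 6 cells (0.150%), 0 of them Hes5 progenitors, too few to show that doublets were rare, and none was removed.

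The cells, the 19 gene lists (441 genes, 415 with a row) and the named genes were chosen with earlier results of these data known. Named genes were list members and, outside the lists, the 12 at each end of the ranking by ratio, leaving out unnamed gene models and genes of ribosomal proteins; some list members are counted in their lists but not reported here by name. Promoters were RefSeq entries matched by symbol; all 4 genes matched.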

Additional observations from a re-analysis of the deposited data

How the results depend on the processing

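No paired analysis was possible because the cells form 1 library. With Tubb3 below 5 the Dll1-positive share of Hes5 progenitors was 24.2%. The 267 higher and 576 lower genes became 518 and 1437 when Dll1-positive meant a value of 2 or more, 93 and 93 with genes in at least 20% of cells, 814 and 1678 with genes in at least 1% of cells, 380 and 905 without cells that held Dlx1 or Dlx2, and 427 and 453 averaged over strata of Gadd45g. Higher genes were 31.7% of both directions together, but 50% with genes in at least 20% of cells, 41.1% within strata of genes per cell and 48.5% within strata of Gadd45g; rare genes made up most calls, the highest stratum of Gadd45g held 25 Dll1-negative cells, and the cause of these shifts was not tested. Under the other alternatives the counts lay between 215 and 294 higher and between 414 and 629 lower. Within strata of Gadd45g, 126 higher and 281 lower genes were shared with the main comparison, and 151 and 349 with Dll1 at 1 only. Of 89 named genes past 1.5-fold, 42 stayed past it within strata of Gadd45g, where Isl1 turned to -0.39 from 1.81, 66 with Dll1 at 1 only and 60 of 87 without cells that held Dlx1 or Dlx2, where Dlx6 turned to -0.23. The median of the compared markers of other cell types was then -0.43 in place of 0.85, since more of them reached 5% of cells, while Pdgfra itself was at 0.79. With Tubb3 below 5, Gsx1 was at 2.55, Isl1 at 1.18 and Dlx6 at 0.62. The alternatives of the Dlx1 and Dlx2 cells, of Gadd45g strata and of Dll1 at 1 only were chosen after seeing the data. Raw depth per cell, which is unknown, limits every share of cells with a rare transcript.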
